A study of Mus musculus with 4 samples.

Results

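Nuclei of layer 2/3 intratelencephalic excitatory neurons were examined in the cortex of GCLC-KO mice. Members were chosen by their own counts: 1 or more UMIs of Slc17a7, the vesicular glutamate transporter of cortical excitatory neurons, none of Gad1, Gad2, Rspo1 or Syt6, and UMIs of at least 3 of 7 markers, namely Otof, Ccbe1, Stard8, Glis3, Fst, Nectin3 and Clec18a. A UMI, or unique molecular identifier, is a tag that lets each captured RNA molecule be counted once. By this rule 1499 of the 30515 nuclei kept were members, which is 4.91% of all nuclei and 10.5% of the 14291 nuclei with Slc17a7 and without Gad1 and Gad2.

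The study sequenced nuclei from 4 mice, 2 at 3 months of age (libraries 3M-1, 3M-2) and 2 at 6 months (libraries 6M-1, 6M-2), with 1 library a mouse. Where 4 values are given, they follow this order of the libraries. All 4 mice carried a floxed Gclc allele, from the strain C57BL/6NTac-Gclctm1a(EUCOMM)Wtsi/WtsiCnbc, together with a CaMKII-Cre transgene, whose promoter drives Cre in forebrain excitatory neurons. The age comparison is thus between knockouts, and no mouse with intact Gclc was analysed here. The tissue was dissected from cortical regions rich in rod-shaped microglia, and DAPI-stained single nuclei were sorted before droplet capture, so shares of nuclei also depend on the dissection and the sort. The kept nuclei numbered 6802, 8750, 8111 and 6852, and held 250925711 UMIs in all.

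Gclc encodes the catalytic subunit of glutamate-cysteine ligase, the rate-limiting enzyme of glutathione synthesis, and glutathione is the main soluble antioxidant of neurons. Intratelencephalic neurons send axons within the telencephalon, including the cortex and striatum, and those of layers 2 and 3 connect cortical areas of the same and the opposite hemisphere. Layer 4 neurons receive thalamic input, and the corticothalamic neurons of layer 6 project back to the thalamus, which makes both useful comparators within the same tissue.

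The members numbered 417, 562, 292 and 228. Their median depth was 14103, 10267, 13214 and 14244 UMIs a nucleus, lowest in 3M-2, and they contributed 6331534, 6399032, 4328555 and 3483298 UMIs to the sums that were tested. Exactly 3 markers were detected in 791 members (52.8%), 4 in 474 (31.6%), 5 in 180 (12.0%), 6 in 49 (3.27%) and all 7 in 5 (0.334%). Scrublet called 117 members doublets (7.81%), and these were kept in the main sums and left out as an alternative. No barcode was shared between members of different libraries, and 8 members shared a barcode with another kept nucleus. Levels are given as CPM, the usual depth-normalised unit, in which the UMIs of a gene are scaled to the total UMIs of the summed nuclei. Xist, which is expressed from the inactive X chromosome, was present at 1923 to 2301 CPM in all 4 libraries, while the Y-linked genes Ddx3y and Uty reached at most 0.158 CPM.

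The 7 markers describe the choice and carry no test. Otof, which encodes the calcium sensor otoferlin, stood at 132, 117, 108 and 140 CPM in members, against means of 2.43 CPM in the layer 4 nuclei and 2.50 CPM in the layer 6 nuclei defined below. Glis3, a zinc finger transcription factor, stood at 125, 123, 120 and 154 CPM, against 2.80 and 1.60 CPM. Ccbe1, an extracellular matrix protein, reached 57.1 to 97.9 CPM, and Fst, the activin-binding protein follistatin, 18.0 to 32.2 CPM. Stard8, a GTPase-activating protein, ranged from 41.1 to 76.3 CPM and was also present at 13.4 CPM in layer 4 nuclei. The adhesion gene Nectin3 (97.0 to 143 CPM) and the lectin gene Clec18a (57.6 to 103 CPM) were shared most with layer 4 nuclei, which held 55.5 and 35.1 CPM of them. In the GRCm38 assembly, Otof lies at chr5:30367062-30461932, Glis3 at chr19:28258851-28680077, Stard8 at chrX:99003248-99074728, Fst at chr13:114452290-114458951 and Nectin3 at chr16:46387706-46498525.

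At the threshold, nuclei with exactly 3 markers were set beside those with 2. Cux2, a homeobox gene of upper-layer neurons, was at 276, 252, 190 and 293 CPM in nuclei with 3 markers, and at 198, 207, 133 and 134 CPM in nuclei with 2. Rorb, a nuclear receptor gene of layer 4, was at 67.9, 76.5, 113 and 35.7 CPM with 3 markers and at 96.8, 152, 197 and 171 CPM with 2. Cux2 was higher and Rorb lower inside the threshold in each library, and the nuclei just outside it, 331, 537, 298 and 173 in number, still carried both.

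As a background for the marker rule, at least 3 of the 7 markers were found in 1.15%, 2.14%, 1.31% and 0.802% of oligodendrocyte-like nuclei and in 2.62%, 4.26%, 3.70% and 2.33% of microglia-like nuclei. These glial nuclei were shallower, with median depths of 1898 to 3017 and 2284 to 2571 UMIs, against 8075 to 11751 UMIs in the Slc17a7 nuclei. Of the members, 17.03%, 14.6%, 26.0% and 25.9% carried a UMI of at least 1 of 6 glial genes (Mog, Mag, St18, Inpp5d, Csf1r and Gja1), a larger share at 6 months than at 3 months. Microglia markers summed to 87.7, 132, 173 and 146 CPM in the members, with all 6 detected and P2ry12 most abundant. Oligodendrocyte markers summed to 169, 149, 207 and 186 CPM, with Mbp most abundant, and astrocyte markers to 28.4, 38.1, 30.5 and 42.5 CPM, with the glutamate transporter gene Slc1a3 most abundant. The part of RNA from glia in the results was not tested beyond repeating each fit without the nuclei with a UMI of those 6 genes. That step changed the markers unevenly. In the remaining members microglia markers summed to 72.2, 110, 127 and 101 CPM and oligodendrocyte markers to 88.5, 89.8, 72.4 and 111 CPM. P2ry12 made up most of that microglia sum, at 57.0, 85.1, 98.3 and 77.6 CPM, against 59.9, 85.2, 106 and 85.3 CPM in all members. The source of its UMIs was not tested. Mertk was at 526 to 1099 CPM in microglia-like nuclei and at 4.42, 8.28, 19.4 and 14.9 CPM in all members. In the remaining members it was at 1.35, 1.32, 1.66 and 0.784 CPM, and C1qa at 0, 1.32, 2.66 and 2.35 CPM. Astrocyte markers there summed to 29.4, 26.2, 31.9 and 34.9 CPM.

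Gclc itself was measured in the members at 37.7, 28.4, 32.6 and 37.3 CPM. The ages overlapped, and the difference between 6 and 3 months was 0.10 ± 0.23 on the log2 scale (SE, n = 2 mice an age; adjusted p = 0.982, edgeR quasi-likelihood test). The counts cover the whole gene at chr9:77754535-77794485 of GRCm38 and cannot tell transcripts of the recombined allele from intact ones.

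Members formed a smaller share of the Slc17a7 nuclei at 6 months than at 3 months. They made up 12.9% (95% Wilson interval 11.8 to 14.2%), 12.3%, 8.87% and 7.07% of the Slc17a7 nuclei. Both 6-month libraries lay below both 3-month libraries. The means were 12.6% ± 0.430 at 3 months and 7.97% ± 1.27 at 6 months (SD, n = 2), a ratio of 1.59. An exact two-sided permutation test gave p = 0.333, the smallest value that 2 mice against 2 allow, so this design could not pass 0.05. Wilson intervals cover counting error only. Slc17a7 was also detected in 10.8%, 15.8%, 14.8% and 21.5% of oligodendrocyte-like nuclei and in 19.3%, 29.7%, 26.6% and 32.5% of microglia-like nuclei. Without the nuclei with glial UMIs the members formed 12.6%, 12.1%, 8.61% and 7.05% of the Slc17a7 nuclei.

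Layer 4 nuclei were those with Slc17a7, Rspo1 (a Wnt agonist) and Rorb, fewer than 3 of the 7 markers and no Gad1, Gad2 or Syt6. They formed 4.87%, 3.97%, 4.28% and 4.09% of the Slc17a7 nuclei, and the ages overlapped (exact permutation p = 1.0). Layer 6 nuclei, with Slc17a7, Syt6 (a synaptotagmin) and Foxp2 (a transcription factor of deep layers), formed 9.19%, 7.13%, 9.48% and 9.49%, with both 6-month values above both 3-month values (exact permutation p = 0.333). Among all nuclei kept, members formed 6.13%, 6.42%, 3.60% and 3.33% (a ratio of 1.81 between the means) and layer 4 nuclei 2.31%, 2.07%, 1.74% and 1.93% (1.19), both lower at 6 months without overlap (exact permutation p = 0.333 for each), while layer 6 nuclei, at 4.35%, 3.71%, 3.85% and 4.47%, overlapped. There were 2.66, 3.11, 2.07 and 1.73 members for each layer 4 nucleus and 1.41, 1.73, 0.936 and 0.745 for each layer 6 nucleus.

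The rule needs detected genes, so each nucleus was also thinned to a fixed number of UMIs before the rule was applied. At 6000 UMIs the members formed 6.65%, 9.29%, 4.42% and 3.97% of the Slc17a7 nuclei, and at 8000 UMIs 9.63%, 12.4%, 7.03% and 5.71%, again without overlap of the ages. At 3000 UMIs, where few members were left, the shares were 1.63%, 2.54%, 1.00% and 1.63%, and 3M-1 and 6M-2 could not be told apart. The order of the ages was the same at other marker numbers, with 6.49%, 5.33%, 4.16% and 3.69% at 4 or more markers and 23.2%, 24.1%, 17.9% and 12.4% at 2 or more. The thinning to 6000 and 8000 UMIs was chosen after the data were seen.

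**Figure D1:**
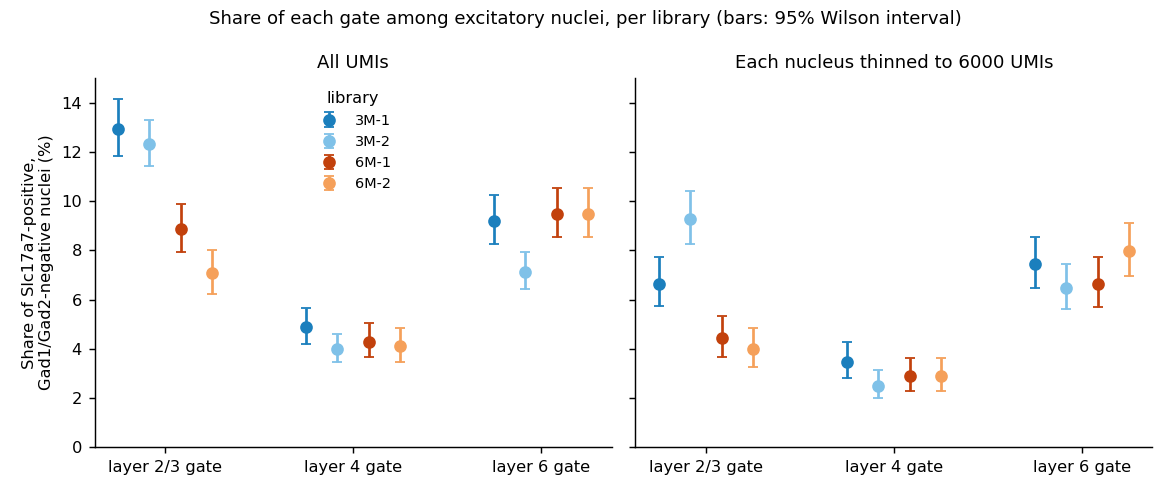
Share of Slc17a7 nuclei (percent, y axis) in the layer 2/3, layer 4 and layer 6 classes of each library, with all UMIs (left) and after thinning each nucleus to 6000 UMIs (right). Points are single libraries and bars are 95% Wilson intervals; the layer 2/3 points at 6 months (8.87% and 7.07% at left) lie below those at 3 months (12.9% and 12.3%) in both panels.

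Members were then compared with layer 4 nuclei of the same mice (611 nuclei, 157, 181, 141 and 132 by library), with the mouse as a block. All genes used by the rules were left out. Genes that vary along with the markers remain in the test, so these differences are not independent of how the nuclei were chosen. At an adjusted p under 0.05 (edgeR's quasi-likelihood test), 3626 of 12286 genes (29.5%) differed, 1862 higher in members (15.2%) and 1764 lower (14.4%). The median log2 difference over all genes was -0.01. Counts for the gene lists below stand beside the 15.2% higher and 14.4% lower over all genes, and their difference from these shares was not tested.

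Of the 10 named genes higher in members, Dgkb, a diacylglycerol kinase, had the smallest difference and the smallest p. It stood at 802, 1041, 1056 and 1089.5 CPM in members and at 54.9, 78.3, 125 and 123 CPM in layer 4 nuclei. This gave a log2 difference of 3.44 ± 0.11 (SE, n = 4 mice; adjusted p = 2.63e-11, edgeR), and no layer 4 value came near a member value. Ptpn14, a protein tyrosine phosphatase gene at chr1:189728268-189876695, was at 34.1, 33.6, 27.0 and 33.0 CPM against 1.06, 2.61, 0.644 and 0.701 CPM, a log2 difference of 4.64 ± 0.28. Cntnap5c, a contactin-associated protein, was higher by 3.75 ± 0.15, Mdga1, which binds neuroligins, by 3.74 ± 0.21, and Igsf11, a synaptic adhesion molecule, by 3.50 ± 0.18. The chloride channel gene Ano2 (4.35 ± 0.39), the motor protein gene Myo5b (3.94 ± 0.30), the heparan sulfate enzyme gene Ndst4 (3.78 ± 0.36), the hyaluronan-binding protein gene Tnfaip6 (3.75 ± 0.33) and the metalloprotease gene Adamts16 (3.46 ± 0.25) completed the 10 largest.

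Of the 10 named genes lower in members, Col8a1, a collagen gene, had the largest difference (-4.12 ± 0.23). Whrn, a PDZ scaffold gene listed as a layer 4 marker, was at 8.21, 6.88, 6.01 and 4.02 CPM in members and at 92.5, 71.8, 93.3 and 117 CPM in layer 4 nuclei, a log2 difference of -3.80 ± 0.17 (adjusted p = 1.41e-10, edgeR). Grik1, a kainate receptor subunit, differed by -3.34 ± 0.18 with 30.6 to 68.2 CPM in members and 309 to 604 CPM in layer 4 nuclei. Cbln4, a synaptic organizer, and Dkkl1 each differed by -3.25, as did Plcxd2, and Zmat4 by -3.21 ± 0.14. Pamr1 (-3.04 ± 0.15), the muscarinic receptor gene Chrm2 (-2.72 ± 0.17) and the receptor phosphatase gene Ptprm (-2.72 ± 0.13) followed.

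Upper-layer markers outside the rule split. Calb1, which encodes the calcium buffer calbindin, was at 43.6, 58.0, 76.7 and 52.2 CPM in members and at 10.0, 26.8, 18.0 and 9.11 CPM in layer 4 nuclei, and was higher by 1.86 ± 0.18 on the log2 scale. Rasgrf2, a Ras exchange factor, was higher by 1.06 ± 0.09, and Lhx2, a LIM homeobox gene, by 0.85 ± 0.14. Cux1 (-0.65 ± 0.08), a homeobox gene, was lower in members, as were Pou3f2, Pou3f3 and Mef2c. Cux2 did not pass the test, at 240 to 339 CPM in members and 299 to 374 CPM in layer 4 nuclei (-0.19 ± 0.08, adjusted p = 0.0936, edgeR). In all 3 of the 9 genes were higher and 5 lower.

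**Figure D2:**
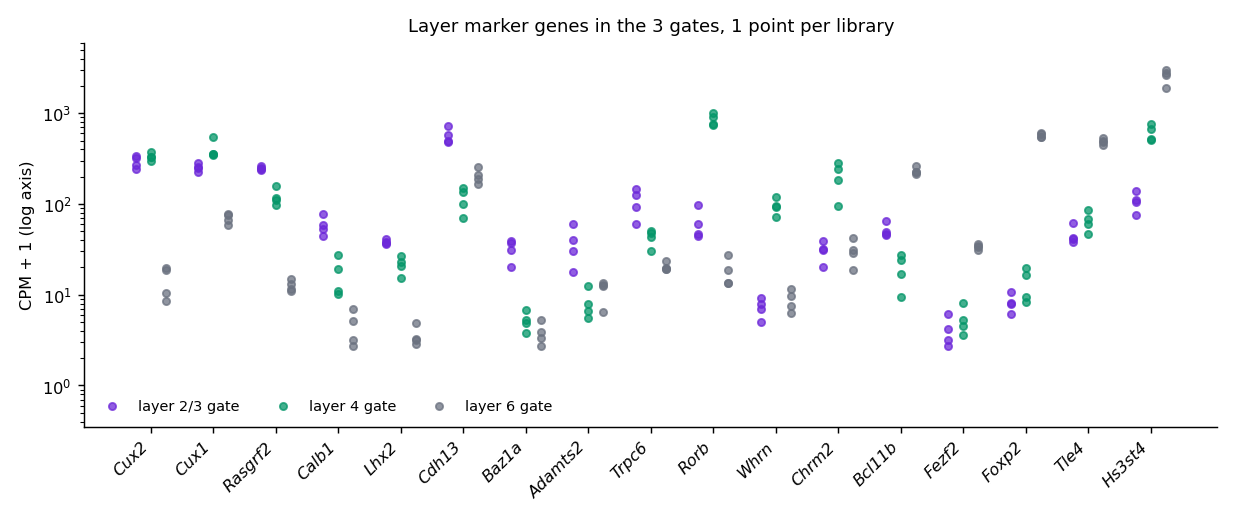
CPM plus 1 (log axis) of 17 layer markers in the layer 2/3, layer 4 and layer 6 classes, with 1 point per library. Rorb and Foxp2 belong to the rules of the comparators and are shown without a test; Rasgrf2 and Calb1 are highest in the layer 2/3 class, while Cux2 is at like levels in the layer 2/3 and layer 4 classes and low in layer 6.

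Transmitter receptors separated the classes by subunit. Of 17 glutamate receptor genes tested, metabotropic members included, 11 were higher in members than in layer 4 nuclei and 5 lower, with a median log2 difference of 0.55. Gria3, an AMPA receptor subunit, was at 1394, 1269.9, 1428 and 1348 CPM against 261, 240, 310 and 245 CPM, higher by 2.37 ± 0.07. Gria1, another AMPA subunit, was higher by 1.31 ± 0.08, and Grik4, a kainate subunit, by 2.19 ± 0.16. Gria4, a further AMPA subunit, was lower by 1.05 on the log2 scale (-1.05 ± 0.07), with 587 to 900.3 CPM in members and 1198 to 1656 CPM in layer 4 nuclei.

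Of 12 GABA-A receptor genes, 6 were higher and 2 lower, with a median of 0.23. Gabra3 (1.90 ± 0.12) and Gabra2 (1.24 ± 0.10), which encode alpha subunits, were higher, as was Gabrg1, which encodes a gamma subunit (1.43 ± 0.33). Gabra2 was at 356, 483, 516 and 562 CPM in members and at 175, 247, 186 and 200 CPM in layer 4 nuclei, without overlap.

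Cadherins, which mediate adhesion between neurons, differed in nearly every member tested, with 10 of 20 higher, 9 lower and a median of 0.12. Cdh9 was at 72.2, 109, 181 and 101 CPM in members and at 5.81, 6.53, 25.1 and 8.41 CPM in layer 4 nuclei (3.37 ± 0.16). Cdh13 (2.35 ± 0.13), Cdh4 (2.42) and Pcdh8 (2.60) were also higher, and Pcdh20 (-1.76) and Cdh12 (-1.55) lower. Among 17 semaphorin, plexin and neuropilin genes, which guide axons, 4 were higher, led by Nrp2 (2.04) and Nrp1 (1.38), and 4 lower, Sema3f among them (-1.53), against 15.2% higher and 14.4% lower over all genes.

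Ion channels were divided in a similar way. Of 25 potassium channel genes, 9 were higher and 12 lower. Kcnn3, a small-conductance calcium-activated channel, was higher by 2.51 ± 0.20, with 40.2 to 74.1 CPM in members and 2.61 to 15.4 CPM in layer 4 nuclei, and Kcnh5, an ether-a-go-go channel, was lower (-2.24 ± 0.13), with 66.6 to 113 CPM against 389 to 468 CPM. Of 19 sodium and calcium channel genes, 7 were higher and 7 lower, with Cacna1h (2.28) and Cacna1g (-1.21), both of T-type calcium channels, on opposite sides.

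Of 20 genes of the presynaptic release machinery, 10 were lower and 3 higher (median -0.26). Over all genes 14.4% were lower and 15.2% higher, so the count of higher genes was near the share over all genes. Slc17a6, a vesicular glutamate transporter, was at 2.01 to 7.66 CPM in members and 15.4 to 28.7 CPM in layer 4 nuclei (-2.05 ± 0.22), and Cplx2, a complexin, was higher by 1.86 ± 0.18. Cholesterol synthesis genes numbered 6 lower and 0 higher of 15 (median -0.44), Msmo1 (-1.20) and Hmgcs1 (-0.97) among them.

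Immediate early genes, which neuronal activity induces, were lower in 9 of 25 and higher in 4 (median -0.34). Over all genes 14.4% were lower and 15.2% higher, so the count of higher genes was near the share over all genes. Egr1, a zinc finger transcription factor, was at 10.7, 31.9, 21.3 and 27.8 CPM in members and at 50.7, 76.4, 70.1 and 98.8 CPM in layer 4 nuclei (-1.71 ± 0.14). Arc (-1.32) and Nr4a1 (-1.17) were lower, while Inhba (1.24), Nr4a3 (1.17) and Nptx2 (1.02) were higher. Slc1a3, on the astrocyte list, was at 22.7 to 33.3 CPM in members and 1.58 to 4.91 CPM in layer 4 nuclei (3.16 ± 0.25).

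Against layer 6 nuclei (1239 nuclei, 296, 325, 312 and 306 by library), which share the member sums with the comparison above, 4866 of 13225 genes (36.8%) differed by the same test, 2554 higher in members (19.3%) and 2312 lower (17.5%). The median over all genes was -0.01. The list counts below stand beside the 19.3% higher and 17.5% lower over all genes, without a test of the difference. Upper-layer markers were higher in 8 of 9 and lower in none, with a median of 2.26. Cux2 was at 321, 266, 240 and 339 CPM in members and at 18.5, 17.9, 9.44 and 7.47 CPM in layer 6 nuclei, a log2 difference of 4.52 ± 0.17 (SE, n = 4 mice; adjusted p = 9.21e-10, edgeR). Rasgrf2 was higher by 4.46 ± 0.10, Calb1 by 4.09 ± 0.23 and Lhx2 by 3.89 ± 0.17.

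Other genes with large differences from layer 6 included the secreted matrix proteins and adhesion receptors Smoc2 (35.6 to 56.4 CPM against 0.800 to 2.61 CPM), Fat4 (4.67 ± 0.20) and Itga4 (4.48 ± 0.15), and Igfn1 (5.34 ± 0.26), Ptpn14 (4.86 ± 0.40), Tafa1 (4.48 ± 0.18), the cyclic GMP-dependent kinase gene Prkg2 (4.40 ± 0.16) and Palmd (4.39 ± 0.17). Of genes lower in members, Trbc1, annotated as a T cell receptor constant segment at chr6:41538218-41539881, was at 0.474, 0, 0.693 and 0.287 CPM against 34.2, 34.0, 34.9 and 35.5 CPM (-6.49 ± 0.28). Ighm, an immunoglobulin heavy chain segment, was at 0.924 to 2.87 CPM against 22.7 to 62.3 CPM (-4.72 ± 0.21). Hs3st4, a heparan sulfate sulfotransferase and layer 6 marker, was at 75.0 to 140 CPM against 1911 to 3026.5 CPM (-4.55 ± 0.18). Grik3, a kainate subunit, was at 17.8 to 21.6 CPM against 386 to 547 CPM (-4.50 ± 0.08), and Shb, Arhgap25, Rell1, Cnksr3, Itga7 and Rai14 differed by -4.96 to -4.41. The deep-layer transcription factor genes Fezf2 (-3.46 ± 0.21), Tle4 (-3.42 ± 0.11) and Bcl11b (-2.14 ± 0.11) were lower.

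Among receptors, 9 of 17 glutamate receptor genes were higher than in layer 6 and 5 lower (median 0.27). Gria1, higher than in layer 4 nuclei, was at 755 to 953 CPM in members and at 641 to 1138 CPM in layer 6 nuclei (0.04 ± 0.08, adjusted p = 0.761, edgeR). Of 12 GABA-A receptor genes, 6 were higher and 3 lower, with Gabra2 higher by 2.63 ± 0.10 and Gabra5 lower (-1.43 ± 0.11). Of 19 cadherins, 11 were higher and 5 lower (median 0.76), with Cdh7 (3.79) and Cdh4 (3.45) against Cdh18 (-3.80 ± 0.09). Of 25 potassium channel genes, 12 were higher and 6 lower (median 0.28), led by Kcnc2, a fast delayed rectifier (2.48 ± 0.14).

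Of 17 semaphorin, plexin and neuropilin genes, 6 were higher and 9 lower (median -0.56). Nrp1 was higher than in layer 4 but lower than in layer 6 nuclei (-2.42 ± 0.15), at 37.0, 56.9, 72.3 and 97.3 CPM in members and 312, 369, 339 and 373 CPM in layer 6 nuclei. Plxnd1, a semaphorin receptor, was higher (2.89 ± 0.18), and Sema3e, a ligand of it, lower (-3.59 ± 0.20). Nuclear-encoded respiratory chain genes were lower in 13 of 30 and higher in none (median -0.28), with small differences such as -0.56 ± 0.09 for Sdhb, a subunit of complex II. Of 24 immediate early genes, 10 were higher and 5 lower (median 0.28). Bdnf, a neurotrophin gene, was at 28.9, 65.9, 66.8 and 95.9 CPM in members and 7.04, 22.0, 10.9 and 10.4 CPM in layer 6 nuclei (2.40 ± 0.20). Of 8 glutathione synthesis and cysteine supply genes, 2 were lower, Gsr (-0.45) and Slc1a1 (-0.42), and none higher. Over all genes 36.8% were called, and the difference from that share was not tested.

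**Figure D3:**
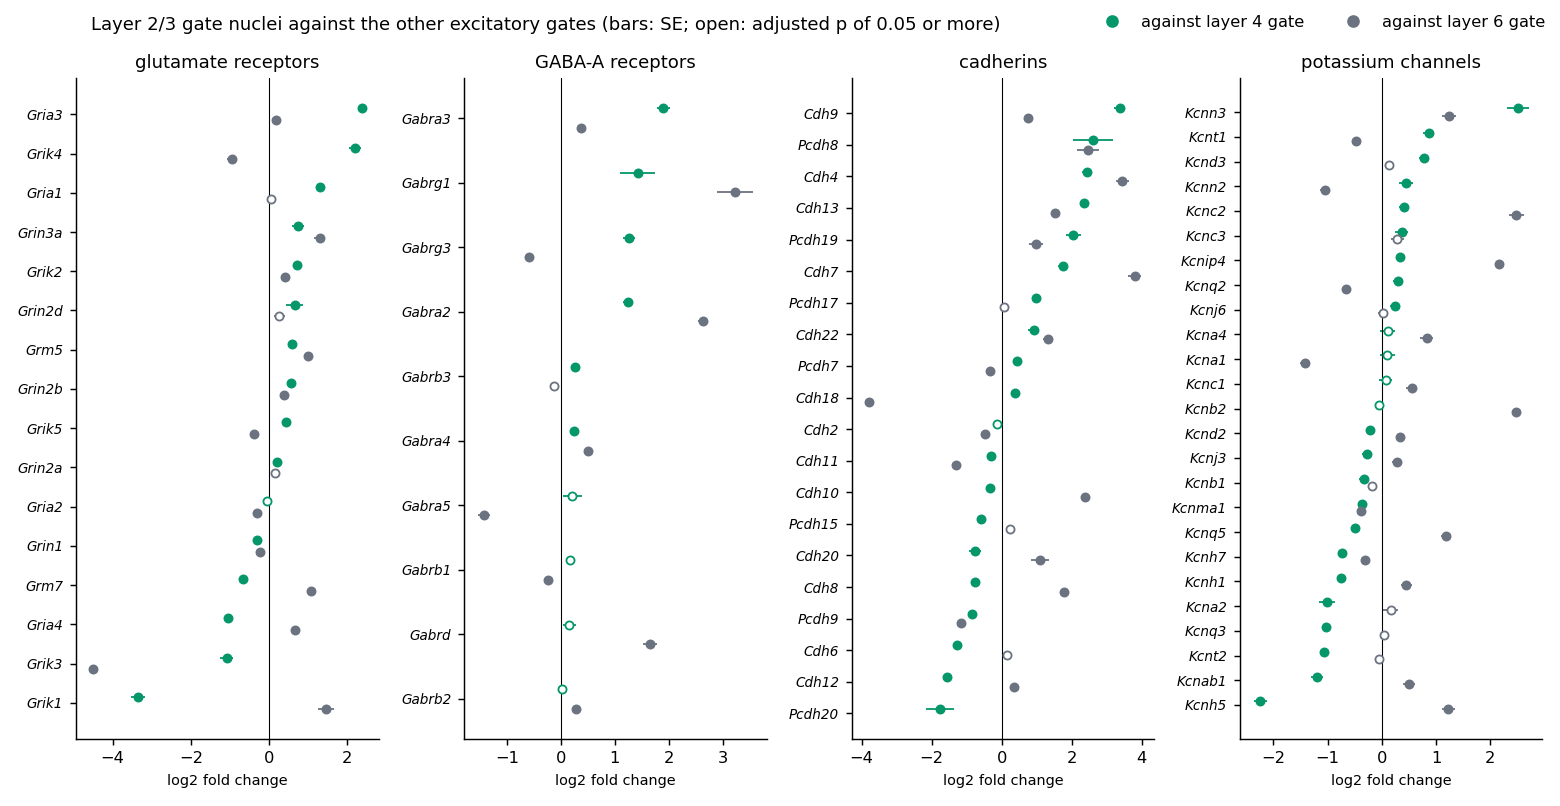
Log2 differences (x axis, points with SE bars) of glutamate receptor, GABA-A receptor, cadherin and potassium channel genes in layer 2/3 members against layer 4 nuclei (green) and layer 6 nuclei (grey), from sums of 4 mice. Open points did not pass the test, and not every gene tested is drawn; Gria3 lies at 2.37 and Grik1 at -3.34 against layer 4, and Cdh18 at -3.80 against layer 6.

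Between 3 and 6 months no gene passed the test in the members. edgeR's quasi-likelihood test called 0 of 14226 genes (0%), 785 (5.52%) had an unadjusted p under 0.05, and DESeq2 called 4. The libraries of the ages did not overlap for 5071 genes (35.6%). The count depended on single libraries, with 431 genes called without 3M-2, 103 without 3M-1, 10 without 6M-2 and 3 without 6M-1, where the remaining library of an age is assumed to vary like the other age. Batch equalled the replicate number at both ages in the labels, and with it as a block 7 genes were called, Tnfaip6, Man1a, Zrsr1, Slit2, Fosb, Lrmda and a predicted gene.

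Man1a, a Golgi mannosidase gene that trims N-glycans, had the values 39.3, 60.6, 145 and 115 CPM. Its log2 difference was 1.41 ± 0.23 (SE, n = 2 mice an age; adjusted p = 0.519, edgeR), and the values at 6 months exceeded those at 3 months in either mouse. Without the nuclei that carried glial UMIs it was at 39.4, 60.4, 140 and 122 CPM. Tnfaip6 was at 9.48, 7.97, 21.7 and 41.6 CPM (1.88 ± 0.34), and at 7.50, 7.72, 22.6 and 44.7 CPM without those nuclei. Prrg1, a Gla-domain membrane protein gene, was at 15.3, 11.9, 35.3 and 28.1 CPM (1.25 ± 0.25).

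For Lrmda and Tgfbr1 the levels were lower when the nuclei with glial UMIs were left out. Lrmda was at 10.1, 12.8, 34.0 and 29.3 CPM in all members (1.49 ± 0.24) and at 5.96, 3.39, 6.31 and 5.49 CPM without those nuclei, where the ages overlapped and the log2 difference was 0.37. Microglia-like nuclei held 655 to 1176 CPM of it. Tgfbr1, a TGF-beta receptor gene, was at 5.84, 9.38, 25.2 and 19.2 CPM in all members (1.57 ± 0.31), at 2.12, 3.20, 8.63 and 4.31 CPM without those nuclei, and at 641 to 1121 CPM in microglia-like nuclei. Its ages did not overlap without those nuclei either, and the log2 difference was 1.33.

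Of genes with lower values at 6 months, Zrsr1, a splicing factor gene within Commd1 at chr11:22972005-22976496, was at 25.1, 25.8, 6.47 and 8.04 CPM (-1.79 ± 0.27, adjusted p = 0.519, edgeR). The same order was seen outside the members, with 38.4, 32.4, 13.5 and 11.7 CPM in microglia-like and 34.4, 43.8, 18.6 and 18.3 CPM in oligodendrocyte-like nuclei. Jkamp was at 44.5, 44.2, 23.8 and 24.7 CPM (-0.85 ± 0.20), and had the same order outside the members, at 51.1, 52.8, 33.7 and 37.9 CPM in microglia-like and 51.5, 52.8, 34.9 and 47.3 CPM in oligodendrocyte-like nuclei. Nrgn, which encodes the calmodulin-binding postsynaptic protein neurogranin, was at 216, 209, 139 and 135 CPM (-0.60 ± 0.16). Ndrg4 was at 174, 174, 114 and 110 CPM (-0.61 ± 0.16) and Cpne5, a copine gene, at 72.2, 75.5, 47.8 and 42.8 CPM (-0.68 ± 0.18). In microglia-like nuclei the ages were apart in the same order for Nrgn (117, 129, 105.5 and 104.6 CPM), Ndrg4 (106, 129, 98.1 and 88.4 CPM) and Cpne5 (34.6, 38.7, 19.3 and 16.5 CPM). In oligodendrocyte-like nuclei the ages overlapped for Nrgn (71.5, 126, 87.6 and 103 CPM), Ndrg4 (58.5, 97.5, 71.9 and 76.0 CPM) and Cpne5 (15.4, 29.6, 18.6 and 12.7 CPM). In the members the libraries of the ages were apart for each of these genes, while the adjusted p was 0.519 or above in the main edgeR fit.

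Immediate early genes had higher values at 6 months in 23 of 25, with a median log2 difference of 0.60 against -0.0013 over all genes. None passed the test, 11 had an unadjusted p under 0.05 (5.52% of all genes did), and 14 had ages that did not overlap (35.6% of all genes did not). Fos was at 5.37, 6.25, 12.2 and 16.7 CPM (1.33 ± 0.32, adjusted p = 0.727, edgeR) and Fosb at 1.42, 5.78, 9.01 and 21.5 CPM (2.09 ± 0.59). Nr4a3, an orphan nuclear receptor gene, was at 14.4, 16.1, 21.02 and 62.3 CPM, and Arc, a synaptic capsid-like protein gene, at 16.6, 23.3, 20.8 and 20.1 CPM. Beside these values, 7 abundant nuclear RNAs, of which Malat1 was the most abundant, summed to 108300.0, 108850.0, 98104 and 87648 CPM in members, lower in both 6-month libraries, and the ages were apart in the same order in layer 4 and layer 6 nuclei. In members 4 of the 7 had ages that did not overlap, against 35.6% of all genes, with lower values at 6 months for Malat1 and Snhg11 and higher values for Neat1 and Kcnq1ot1, 3 had an unadjusted p under 0.05 and none passed the test (median -0.01), and the part of this difference in the immediate early gene values was not tested.

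The sum over the immediate early genes overlapped between ages, at 633.5, 947, 915 and 1224 CPM, lowest in 3M-1 and highest in 6M-2. In layer 4 nuclei it was 1159, 1271, 1299 and 1512 CPM, higher at 6 months without overlap. In layer 6 nuclei it was 883, 1362, 988 and 1099 CPM, with overlap. In the interaction of age with layer 4 described below, 19 of 25 genes were above 0 (median 0.30) and none passed. Without 6M-2 the median was 0.28 with 3 genes at an unadjusted p under 0.05, and without 3M-1 it was 0.40 with 11. Without 3M-2 it was 0.99 with 18, all 25 genes being above 0, and without 6M-1 it was 0.90 with 14. Without the nuclei that carried glial UMIs the median was 0.57. Among members with at least 4 of the 7 markers it was 0.96, with 24 of 24 genes above 0 and 14 at an unadjusted p under 0.05.

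**Figure D4:**
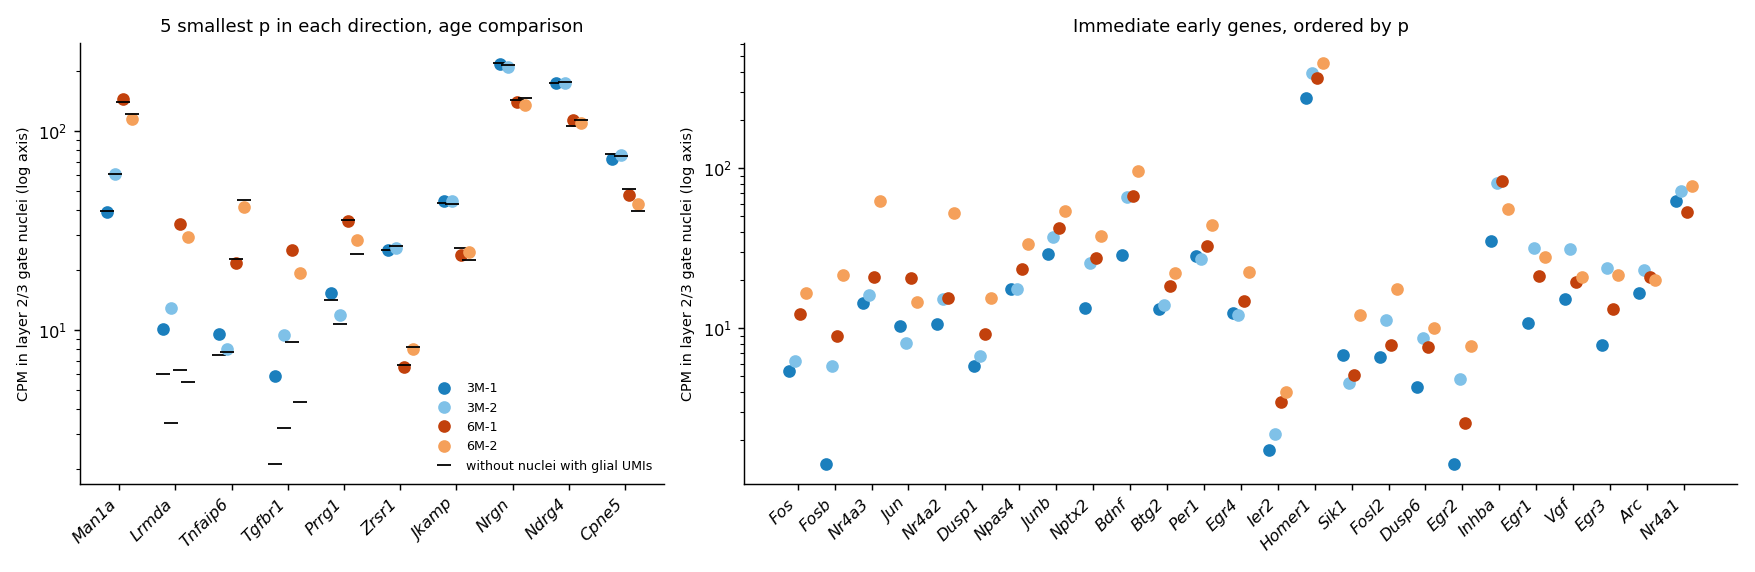
Left, CPM (log axis) of 10 genes in layer 2/3 members of each library, with a black dash for the value without nuclei that carried glial UMIs; right, CPM (log axis) of 25 immediate early genes in the same libraries, ordered by p. None of these genes passed the main edgeR test. The dashes lie well below the points for Lrmda and Tgfbr1 and close to them for Man1a and Tnfaip6.

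No gene of the glutathione and stress lists passed the age test. Of 10 glutathione synthesis and cysteine supply genes, 6 had higher values at 6 months, 1 with an unadjusted p under 0.05 (median 0.06). That gene was Slc7a11, the cystine transporter, at 0.790, 1.72, 4.39 and 6.03 CPM (2.05 ± 0.53, adjusted p = 0.759, edgeR). The 6-month libraries were also higher outside the members, at 1.54, 4.22, 4.67 and 7.62 CPM in microglia-like and 1.03, 2.41, 3.99 and 3.7985 CPM in oligodendrocyte-like nuclei, with the ages apart in both. Of 16 glutathione peroxidase and peroxiredoxin genes, 7 had higher values (median -0.01), and of 15 genes for Nrf2, the antioxidant transcription factor, and its targets, 6 (median -0.05). Integrated stress response genes had higher values in 12 of 13 (median 0.27, 2 with an unadjusted p under 0.05), ferroptosis and iron genes in 9 of 11 (0.12, 1), and p53 and DNA damage genes in 5 of 13 (-0.08, 1).

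Other lists were described in the same way, and none of their genes passed the age test. Nuclear-encoded respiratory chain genes were above 0 in 15 of 30 (median 0.003), cholesterol synthesis genes in 8 of 17, chaperones in 8 of 14 (0.06) and presynaptic genes in 6 of 20 (-0.09). GABA-A receptor genes were above 0 in 9 of 12 (0.23, with 4 at an unadjusted p under 0.05), glutamate receptor genes in 10 of 17 (0.08, 2) and cadherins in 14 of 19 (0.24, 6). Semaphorin, plexin and neuropilin genes were above 0 in 11 of 19 (0.23, 5), and 13 of them had ages that did not overlap, against 5.52% and 35.6% of all genes. Potassium channel genes were above 0 in 12 of 25 (-0.06, 7), and 15 of them had ages that did not overlap. Sodium and calcium channel genes were above 0 in 10 of 19 (0.005, 4), with 8 not overlapping. Of the presynaptic genes 12 of 20 had ages that did not overlap, and 1 had an unadjusted p under 0.05. The potassium channel median was 0.004 without 3M-1 and -0.11 without 3M-2. Without 6M-1 the median was 0.10 for the GABA-A receptor genes and 0.07 for the cadherins. The respiratory chain genes moved both ways with single libraries, with 7 of 30 above 0 without 3M-1 (median -0.15, 1 at an unadjusted p under 0.05) and 23 of 30 without 3M-2 (0.21, 6). Without 6M-1 and without 6M-2 their medians were -0.05 and -0.05, from 10 and 13 of 30 above 0. For the glutamate receptor genes the median was 0.17 without 3M-1, 0.01 without 3M-2 and 0.0003 without 6M-2. Complement, MHC class I and interferon genes were above 0 in 8 of 10 (0.55, 2) and microglia markers in 6 of 6 (0.84, 3). The complement, MHC class I and interferon list summed to 31.4, 50.6, 56.4 and 51.4 CPM in members, and without nuclei with glial UMIs to 32.1, 46.5, 44.8 and 39.6 CPM, where the ages overlapped. Without nuclei with glial UMIs, 3 microglia markers were tested, with a median of 0.35 and 0 at an unadjusted p under 0.05, and without doublets the median was 0.50. With all nuclei it was 0.55 without 3M-1. Among the microglia markers, C1qa, a complement gene of microglia, was at 0.948, 2.34, 6.47 and 6.03 CPM.

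Whether an age difference was particular to the members was tested as an interaction with layer 4 nuclei. It passed in 3 of 13241 genes (0.0227%, 716 at an unadjusted p under 0.05, edgeR). Dscaml1, an adhesion molecule gene at chr9:45426628-45753712, was at 415, 420, 200 and 404.5 CPM in members and at 37.0, 33.3, 57.9 and 79.9 CPM in layer 4 nuclei. The excess over layer 4 was smaller at 6 months by 1.45 on the log2 scale (-1.45 ± 0.22, adjusted p = 0.0183, edgeR), with log2 ratios of 3.32 and 3.47 at 3 months and 1.70 and 2.27 at 6 months. The layer 4 values were higher at 6 months without overlap. In the members 6M-1 was low, while 6M-2 was near the 3-month values. In oligodendrocyte-like nuclei the values were lower at 6 months without overlap (988, 692, 527 and 636 CPM). In microglia-like nuclei only 6M-1 was clearly lower (265.1, 273, 206 and 264.1 CPM). Iqgap2, a cytoskeletal scaffold gene at chr13:95627177-95891922 that overlaps F2rl2, was at 144, 196, 99.8 and 163 CPM in members and at 6.34, 9.14, 27.7 and 26.6 CPM in layer 4 nuclei (-2.19 ± 0.33, adjusted p = 0.0183, edgeR). Its member values overlapped between ages, as did those of microglia-like (94.1, 130.1, 117 and 164 CPM) and oligodendrocyte-like nuclei (52.8, 89.0, 65.8 and 99.3 CPM), and its layer 4 values did not.

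Sorcs3, a sorting receptor gene at chr19:48206025-48805505, was at 387, 646, 413 and 582 CPM in members and at 269, 373, 147 and 177 CPM in layer 4 nuclei (0.97 ± 0.16, adjusted p = 0.0314, edgeR). Here too the members of the ages overlapped, while layer 4 nuclei were lower at 6 months. The ages overlapped in microglia-like (166, 280.3, 190.4 and 243 CPM) and oligodendrocyte-like nuclei (173, 258, 198 and 190.2 CPM). Each call was lost without 3M-1 or 3M-2, with adjusted p of 0.0933 and 0.137 for Dscaml1, 0.109 and 0.0990 for Iqgap2, and 0.558 and 0.0990 for Sorcs3 (edgeR). Without doublets the adjusted p was 0.170 for Dscaml1 and 0.107 for Iqgap2, without glial UMIs it was 0.0869 for Dscaml1, and DESeq2 gave 0.301 for Sorcs3. Without 6M-1 and without 6M-2 the count of genes was 83 and 95.

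Members were also divided by Adamts2, a procollagen peptidase gene, and Agmat, an agmatinase gene, which mark types among layer 2/3 neurons. There were 337 members with Adamts2 alone (134, 99, 42 and 62 by library), 89 with Agmat alone (17, 39, 18 and 15) and 6 with both. Thinned to 6000 UMIs, Adamts2 was detected in 19.95%, 13.1%, 8.21% and 16.1% of members and Agmat in 3.16%, 5.05%, 4.29% and 3.59%, with overlap of the ages for both. The unthinned shares were 32.4%, 18.0%, 14.7% and 28.1% for Adamts2 and 4.32%, 7.30%, 6.51% and 7.46% for Agmat, and thinning left out 6, 67, 12 and 5 members. In layer 4 nuclei thinned alike the shares were at most 3.31% and 0.847%, and layer 6 nuclei held Adamts2 in 6.71%, 4.21%, 2.47% and 2.72%. Oligodendrocyte-like nuclei thinned alike held Adamts2 in 26.2%, 10.4%, 13.8% and 8.27% and Agmat in at most 1.64%. Only 107, 134, 304 and 254 of the 960, 981, 1838 and 1497 such nuclei had the 6000 UMIs needed. These deeper nuclei also held Cux2, the upper-layer gene, in 52.3%, 43.3%, 38.2% and 40.6%. A UMI of Adamts2 was found outside the members as well, and the part of RNA from other cells in these shares was not tested. With the mouse as a block and these 2 genes left out, 597 of 7502 genes (7.96%) differed, 276 higher in Adamts2 nuclei (3.68%) and 321 higher in Agmat nuclei (4.28%). List counts for these nuclei stand beside those shares, without a test of the difference. Of 3 oligodendrocyte markers tested, all 3 were above 0 and 1 was called higher in Adamts2 nuclei (median 1.23). Without the nuclei with glial UMIs 429 of 5874 genes were called. The part of RNA from other cells in these gene differences was not tested. The median over all genes was -0.01. The Agmat sums rest on 15 to 39 nuclei a library, and the count fell to 391 without 3M-2.

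Higher in the Adamts2 nuclei was Rab27a, a vesicle-trafficking GTPase gene, at 37.7, 30.6, 31.2 and 36.5 CPM against 0, 0, 3.60 and 0 CPM (5.03 ± 0.69). Rhbdl3, a rhomboid-family gene, was at 162, 105, 62.5 and 77.9 CPM against 7.77, 2.17, 7.21 and 8.91 CPM (4.02 ± 0.35, adjusted p = 1.75e-06, edgeR). Cpne7, a copine gene (3.75 ± 0.31), and Cnih3, an AMPA receptor auxiliary subunit gene (2.66 ± 0.34), were also higher, with March3, Btbd11, Ptpru, Adamtsl1, Ust and Cdkl4 between 2.71 and 4.62. Gria1 was at 1231, 1129.6, 960.1 and 1246 CPM against 517, 486, 407 and 602 CPM (1.11 ± 0.09), 1 of 3 glutamate receptor genes higher of 17, with none lower. Cdh13 (1.13 ± 0.16), Bcl11b (1.34 ± 0.26) and Grin3a, an NMDA receptor subunit gene (2.14 ± 0.39), were higher as well.

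Higher in the Agmat nuclei was Sorcs3, at 1011, 950, 649 and 1248 CPM against 163, 298, 170 and 249 CPM (-2.22 ± 0.14, adjusted p = 2.41e-08, edgeR). Igfn1 was at 77.7, 75.9, 104 and 57.9 CPM against 4.78, 10.5, 12.2 and 0.986 CPM (-3.58 ± 0.33), and Nptx2, a neuronal pentraxin gene, at 70.0, 36.9, 25.2 and 89.1 CPM against 7.17, 8.06, 4.07 and 12.8 CPM (-2.84 ± 0.31). Igsf9b (-2.25 ± 0.19), an adhesion molecule of inhibitory synapses, the matricellular gene Ccn4 (-3.34 ± 0.47), the glycolytic regulator gene Pfkfb3 (-2.67 ± 0.36), Ptgs2os, Mei1, Herc6 and Tmem9 followed. Bdnf was at 81.6, 75.9, 61.3 and 107 CPM against 10.5, 16.1, 28.5 and 33.5 CPM (-2.07 ± 0.28).

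Of 11 immediate early genes tested, 3 were higher in Agmat nuclei, Nptx2, Bdnf and Nr4a1, and none in Adamts2 nuclei (median -0.52). Baz1a (-1.94 ± 0.46), a chromatin remodelling subunit gene, and Trpc6 (-1.87 ± 0.26), a cation channel gene, were higher with Agmat. Of 25 potassium channel genes 7 were higher with Agmat and 2 with Adamts2, and of 18 cadherins 5 and 3. Of 11 GABA-A receptor genes 4 were higher with Adamts2, Gabra3 among them (0.85 ± 0.20), and 2 with Agmat.

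**Figure D5:**
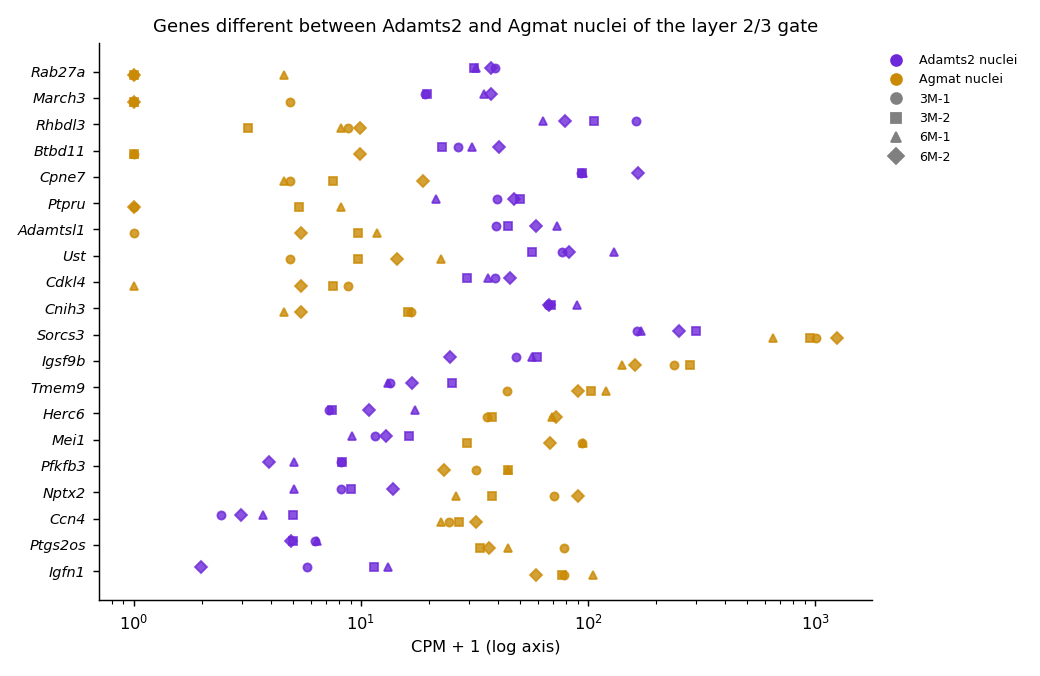
CPM plus 1 (log axis) of 20 genes in Adamts2 nuclei (purple) and Agmat nuclei (ochre) among the layer 2/3 members, with a marker shape for each library. The genes were chosen for having the same order in all 4 libraries; Sorcs3 is at 649 to 1248 CPM in Agmat nuclei and 163 to 298 CPM in Adamts2 nuclei.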

How the data were processed

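Nuclei from 4 cortices were profiled by droplet 3′ sequencing. Per the labels and file headers, the authors aligned reads to mm10 and made UMI count matrices with Cell Ranger 7.0.0, then used Seurat. The deposited values are raw counts of UMIs per gene and nucleus (30784 nuclei, 32285 genes). Their stated filter, at most 7000 genes and at most 1% mitochondrial UMIs, left 30515. Gene coordinates are from GENCODE M21 (32158 identifiers found). Oligodendrocyte-like nuclei held at least 3 of 5 markers, Mog, Mag, Mobp and St18 among them, and microglia-like nuclei at least 3 of 5, Csf1r, Cx3cr1, P2ry12 and Inpp5d among them. Some genes of the lists are counted but not reported here by name.

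The UMIs of each mouse's nuclei in a class were added up and tested with edgeR 4.0.16 in R 4.3.3 (glmQLFit, TMM, filterByExpr, Benjamini-Hochberg over all genes, threshold 0.05), after a check on simulated data. All genes used by the rules were left out of the tests between classes. DESeq2 1.42.0 was an alternative. Shares were tested by exact permutation (scipy 1.17.1) and doublets called with Scrublet in scanpy 1.11.5. Per-library log2 ratios used a pseudocount of 5 CPM. With 2 mice an age, p-values of the age test rest on the spread between those mice. In the tests with the mouse as a block, p-values rest on how the class difference varied between mice.

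The genes named were up to 10 a direction with the largest change among those called, at least 20 CPM in the higher class and the same sign in every mouse. Where fewer than 5 were called, the 5 with the smallest p were named, their ages not overlapping. Further members of the gene lists were chosen after their values were seen. The members and lists were chosen with earlier results of these data known. The labels' batch number equals the replicate number at both ages, so the numbers pair the mice by batch; same-numbered mice did not deviate together (correlation -0.0232 over 10662 genes). Results without doublets, without nuclei with glial UMIs, at other marker numbers, after thinning, with other normalization and filters, and without each mouse were recomputed.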

Additional observations from a re-analysis of the deposited data

Results flagged for a closer look

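The age difference of 3 genes differed between layer 2/3 members and layer 4 nuclei by the interaction test. The log2 value was -1.45 for Dscaml1, -2.19 for Iqgap2 and 0.97 for Sorcs3. For Iqgap2 and Sorcs3 the member values of the ages overlapped, and the layer 4 values did not. For Dscaml1 the layer 4 values did not overlap either, and the member value in 6M-2 (404.5 CPM) was near those at 3 months. Layer 4 sums came from 132 to 181 nuclei a library, and the part of that number in the difference was not tested.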

How the results depend on the processing

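The age test called 4 genes with DESeq2, 76 with no filter on low counts, and 3 to 431 when a mouse was left out, against 0. With the batch number as a replicate block, which pairs the mice, it called 7; without the mouse as a block the counts were 1981 against layer 4, 3010 against layer 6 and 308 between Adamts2 and Agmat nuclei. Against layer 4, DESeq2 called 2253 of 15615 genes, where the main test called 3626 of 12286. Thinning to 3000 UMIs left fewer genes to test. It gave 434 of 1770 against layer 4, and 833 of 4036 against layer 6, where the main test called 4866 of 13225. The interaction gave 40 genes with no filter, 0 after thinning, 5 without nuclei with glial UMIs and 0 to 95 without a mouse. Between Adamts2 and Agmat nuclei DESeq2 called 332 genes, with 391 to 569 without a mouse, and fits at 4 or more markers and after thinning were not run, with fewer than 10 nuclei in a sum. The difference in share between 6 and 3 months, -4.67 percentage points, was -8.49 at 2 or more markers, -1.98 at 4 or more, -0.77 after thinning to 3000 UMIs, -2.81 among all nuclei, and -5.57 to -3.77 without a mouse. The causes were not tested. Of the values for single named genes, 801 kept their direction and side of the threshold, 48 passed it only in the alternative, 13 passed only in the main test and 0 reversed.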
